A study of Homo sapiens with 18 samples.

Results

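The 9 genes described here make or assemble the HLA class I antigen presentation complex, and they were chosen by symbol from the 23710 gene rows of each count table. They are HLA-B, HLA-C, HLA-E, HLA-F and HLA-G, which encode heavy chains, B2M, which encodes the shared light chain, TAP1 and TAPBP, which act in peptide loading, and NLRC5, a transcriptional regulator of the set. RNA sequencing followed changes in EHF, which belongs to the ETS transcription factors and is made in epithelia, in 3 established head and neck squamous carcinoma cell lines, to ask which genes change with its level. A253 gave 3 libraries with EHF overexpression, grown with doxycycline to induce it, and 3 control libraries grown in regular medium. SCC25 gave 2 and 2 libraries of the same kinds. CAL27, kept in regular medium throughout, gave 2 libraries of each EHF knockdown, sh 64 and sh 65, and 2 control libraries. Doxycycline and EHF cannot be told apart in A253 and SCC25. Nothing in the labels says whether libraries of a group came from separate cultures, so p-values measure only the spread between these libraries. An EHF ChIP library of CAL27 and its input DNA were not analysed here.

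Class I molecules carry peptides cut from the cell's own proteins to its surface, where CD8+ T cells read them. The proteasome cuts the peptides, the TAP transporter moves them into the endoplasmic reticulum, tapasin (TAPBP) and helper proteins load them on the heavy chain, and B2M holds the complex together. Interferons raise most of these genes through IRF factors, and NLRC5 acts on a shared module of class I promoters. Loss of this pathway is a known route of immune escape in squamous carcinoma.

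The start regions of the heavy chain genes other than HLA-E are shown first because these genes differed in how they changed while their promoters are alike. Of the 9 genes, 7 matched a promoter window in RefSeq (GRCh38.p14), a different build from the hg19 of the counts, and the sequences are those of the reference and not of the cell lines. HLA-E and NLRC5 matched none. Bases 200 to 51 before the start are given 5′ to 3′ along the gene. Capitals mark an interferon regulatory factor type motif, GAANNGAAA, or the kB consensus of NF-kB factors, each searched on both strands. For HLA-G, window 3 of its 3 windows is shown and was used in the alignments below. Among the HLA-G windows it alone has a kB match. HLA-B lies at chr6:31357230-31357379 (minus strand), HLA-C at chr6:31272143-31272292 (minus strand), HLA-F at chr6:29723234-29723383 (plus strand), HLA-G at chr6:29827625-29827774 (plus strand) and B2M at chr15:44711317-44711466 (plus strand).
HLA-B: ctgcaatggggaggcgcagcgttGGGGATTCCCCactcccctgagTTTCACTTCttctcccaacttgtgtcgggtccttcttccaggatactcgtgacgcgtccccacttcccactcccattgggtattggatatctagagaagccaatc
HLA-C: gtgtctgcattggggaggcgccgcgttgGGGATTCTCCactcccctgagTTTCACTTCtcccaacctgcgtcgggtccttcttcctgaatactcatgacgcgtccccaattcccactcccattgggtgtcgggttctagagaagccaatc
HLA-F: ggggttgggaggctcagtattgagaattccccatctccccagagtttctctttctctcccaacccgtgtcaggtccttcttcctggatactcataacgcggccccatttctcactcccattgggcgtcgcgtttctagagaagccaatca
HLA-G: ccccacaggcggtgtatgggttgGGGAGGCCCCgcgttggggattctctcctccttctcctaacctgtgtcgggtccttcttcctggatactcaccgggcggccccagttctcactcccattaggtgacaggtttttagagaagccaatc
B2M: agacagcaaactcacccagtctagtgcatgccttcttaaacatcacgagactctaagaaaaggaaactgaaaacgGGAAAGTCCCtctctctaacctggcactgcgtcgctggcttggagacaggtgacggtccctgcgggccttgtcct

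Over the whole windows of 300 bases, HLA-B and HLA-C were the most alike, with 88.5% identical positions in a global alignment. HLA-B and HLA-F shared 79.7%, HLA-B and HLA-G 73.5%, and HLA-B and B2M 47.6%. The 7 genes have 10 windows, since HLA-G has 3 and TAP1 has 2. The IRF-type motif, in the spelling GAANNGAAA, was found in 2 of these 10 windows, those of HLA-B and HLA-C. It was found in 7.66% of all 35116 windows. A form with 1 more A before the 2 free bases was not searched. That form can be read, unmarked, in the B2M, HLA-F, TAP1 and TAPBP windows. The count therefore does not show that windows other than those of HLA-B and HLA-C lack an interferon-type element. The kB consensus was found in 6 of the 10 windows and in 11.3% of all windows. It was absent from the HLA-F window, from 2 of the 3 HLA-G windows and from 1 of the 2 TAP1 windows. In HLA-B its 4 matches, on both strands, overlap in 1 block of letters. CCAAT was found in 6 of the 10 windows and in 34.6% of all windows, and GGAAG, the core that ETS factors bind, in 8 of the 10 windows and in 71.9% of all windows. A match describes letters only.

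EHF itself moved as labelled. It was at 765, 711 and 633 CPM (CPM, scaled by TMM within each line) in A253 with EHF overexpression, against 84.5, 91.4 and 83.2 CPM in A253 controls. It was at 860 and 892 CPM in SCC25 with EHF overexpression, against 461 and 420 CPM in SCC25 controls. In CAL27 it was at 497 and 526 CPM with sh 64 and 444 and 469 CPM with sh 65, against 962 and 992 CPM in controls. The contrast was thus 8.13-fold in A253, 1.99-fold in SCC25 and 0.494-fold in CAL27 knockdowns, and CAL27 knockdowns still held more EHF than A253 controls. Library totals were 7068155 to 19962159 counts. Summed markers of cell types separated some groups and not others. Epithelial markers summed to 11011 to 11909 CPM in A253 with EHF overexpression, against 12518 to 13561 CPM in A253 controls, and to 9547 to 11870 CPM in CAL27 knockdowns, against 7509 to 7762 CPM in CAL27 controls. In SCC25 the groups overlapped, at 13742 to 14199 CPM with EHF overexpression, against 14091 to 15003 CPM in controls. The 5 fibroblast markers summed to 6.83 to 7.90 CPM in A253 with EHF overexpression, against 9.11 to 11.2 CPM in A253 controls, and to 107 to 110.0 CPM in SCC25 with EHF overexpression, against 87.2 to 98.2 CPM in SCC25 controls. In CAL27 they summed to 13.3 to 15.6 CPM with sh 64 and 8.01 to 8.84 CPM with sh 65, against 7.63 to 8.51 CPM in controls, and the sh 65 range overlapped that of the controls. COL1A2 was at 0 in A253 controls and DCN with sh 65. The 3 endothelial markers summed to 1.84 to 2.62 CPM in A253 with EHF overexpression, against 1.78 to 2.35 CPM in A253 controls, which overlapped. They summed to 6.72 to 6.98 CPM in SCC25 with EHF overexpression, against 4.87 to 5.00 CPM in SCC25 controls, where CDH5 was at 0, and to 3.94 to 5.57 CPM in CAL27 knockdowns, against 6.36 to 7.30 CPM in CAL27 controls. The 8 leukocyte markers summed to 12.5 to 14.4 CPM in A253 with EHF overexpression, against 8.21 to 8.72 CPM in A253 controls, and to 40.0 to 46.9 CPM in SCC25 with EHF overexpression, against 32.9 to 35.5 CPM in SCC25 controls, with CD3E at 0 in all A253 libraries. In CAL27 they summed to 10.8 to 13.4 CPM in knockdowns, against 12.8 to 13.2 CPM in controls. The part of these markers in the results was not tested.

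With EHF overexpression in A253, 5 of the 9 genes passed as higher and 0 as lower (edgeR quasi-likelihood test, Benjamini-Hochberg adjusted p under 0.05 over 14503 genes). Of all genes tested in A253, 7.97% passed, and 5.03% passed as higher. In SCC25, 9 of 9 passed as higher, where 23.9% of 14120 genes passed and 12.2% passed as higher. HLA-G cleared the filter on low counts there only through the EHF overexpression libraries, so its pass is no separate support. In CAL27, HLA-G was too low to be tested, and 2 of the other 8 genes passed as higher and 0 as lower in the mean of both knockdowns, where 18.8% of 13629 genes passed and 9.88% passed as higher. The median log2 change of the genes tested was 0.30 in A253, 0.61 in SCC25 and 0.09 in CAL27, while that of all genes was 0.00 in each line. HLA-B and HLA-F passed as higher in all 3 lines, that is, with EHF raised in A253 and SCC25 and with EHF lowered in CAL27.

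**Figure D1:**
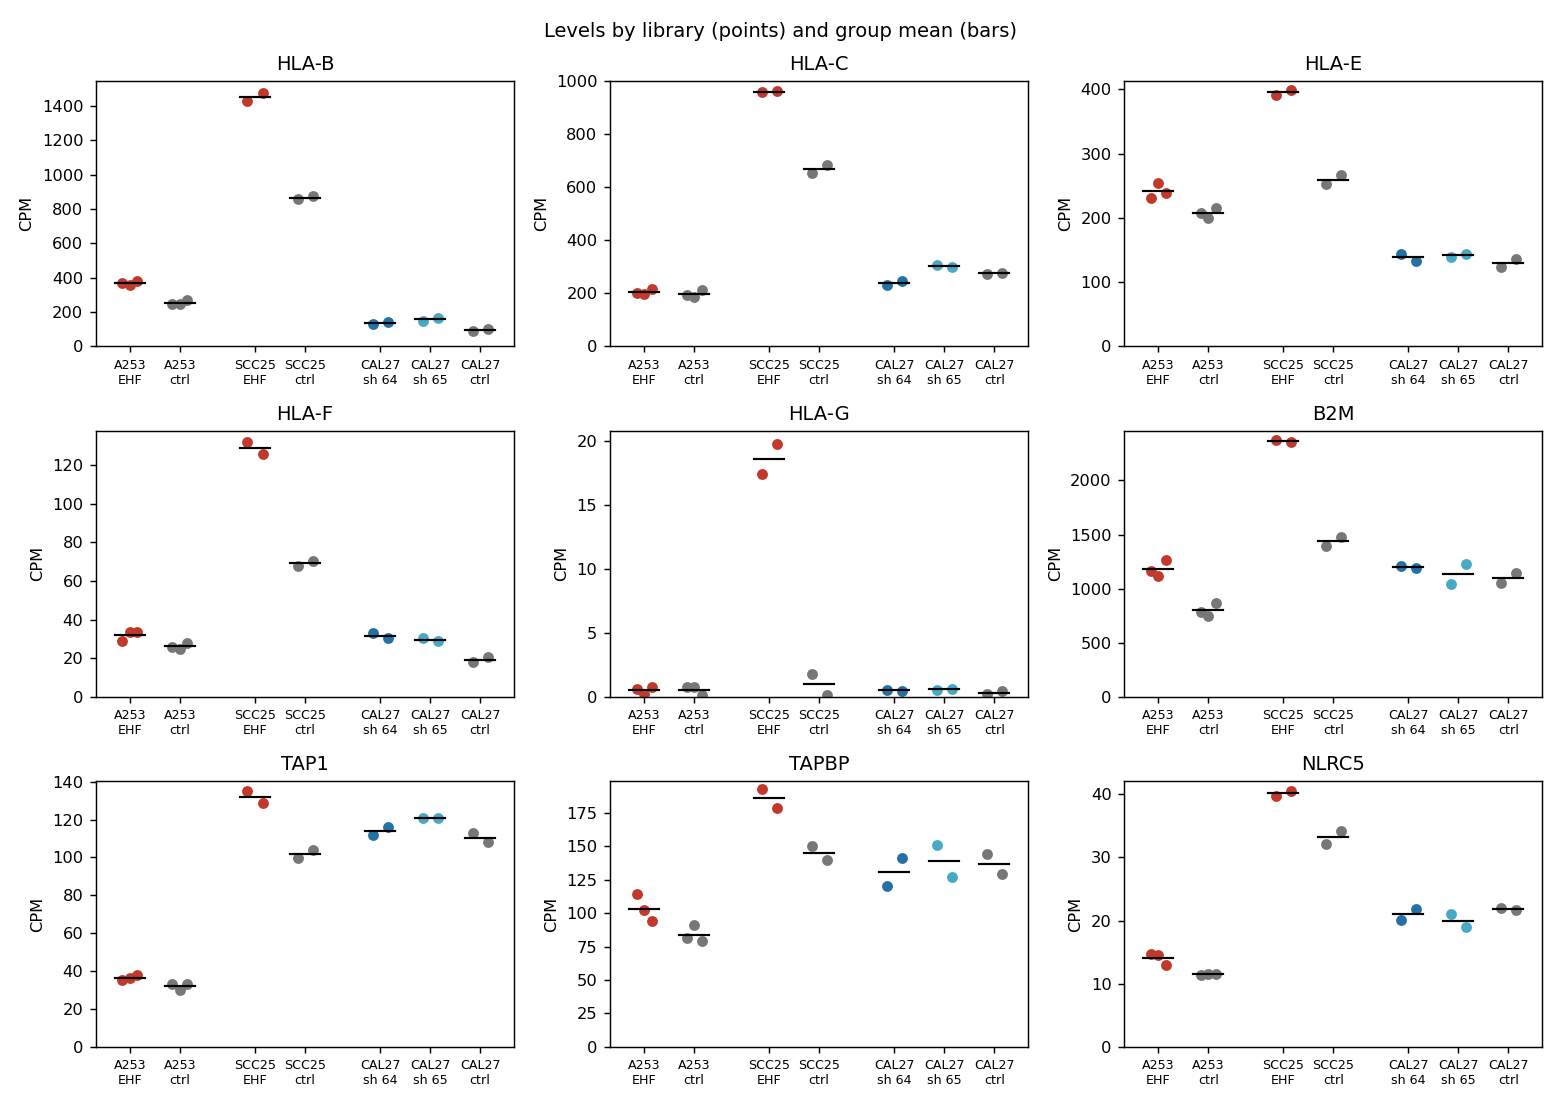
Level of each gene (CPM, linear axis from 0) in each library (points) with the group mean (bar), for EHF overexpression (EHF) beside control (ctrl) in A253 and SCC25, and for sh 64 and sh 65 beside control in CAL27. HLA-B and HLA-F stand above their controls in all 3 lines, and HLA-G stands out only in SCC25 with EHF overexpression, at 17.4 and 19.8 CPM.

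HLA-B, a classical heavy chain that presents peptides to T cells, was at 368, 358 and 383 CPM in A253 with EHF overexpression, against 249, 247 and 268 CPM in A253 controls. The groups did not overlap, and the rise was 1.45-fold (log2 change 0.54, SE 0.061, adjusted p = 1.94e-05). SCC25 libraries were at 1427 and 1476 CPM with EHF overexpression, against 859 and 874 CPM in controls, again without overlap (1.68-fold, log2 change 0.74, SE 0.053, adjusted p = 9.62e-11). Levels in CAL27 were 131 and 142 CPM with sh 64 and 150 and 165 CPM with sh 65, against 88.5 and 104 CPM in controls. All 4 knockdown libraries lay above both controls. The log2 change was 0.50 with sh 64 (SE 0.09, adjusted p = 0.000978) and 0.70 with sh 65 (SE 0.089, adjusted p = 3.1e-05). These comparisons share their 2 control libraries. In all genes tested, 15.7% passed with sh 64 and 14.6% with sh 65, and 2 of the 8 class I genes tested passed with each, HLA-B and HLA-F.

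HLA-C, the other classical heavy chain measured here and a main ligand of inhibitory receptors on natural killer cells, behaved otherwise. In A253 it was at 202, 199 and 216 CPM with EHF overexpression, against 193, 186 and 214 CPM in controls, with overlapping groups (log2 change 0.06, SE 0.066, adjusted p = 0.728). Levels in SCC25 were 959 and 962 CPM with EHF overexpression, against 654 and 685 CPM in controls, and the gene rose 1.43-fold (log2 change 0.52, SE 0.053, adjusted p = 5.13e-08). CAL27 libraries had 232 and 248 CPM with sh 64 and 307 and 300 CPM with sh 65, against 274 and 277 CPM in controls. The sh 64 libraries lay below the controls and the sh 65 libraries above them, and neither change passed (log2 change -0.20, adjusted p = 0.0683 with sh 64, and 0.14, adjusted p = 0.217 with sh 65). The difference of sh 65 from sh 64 did pass (log2 difference 0.34, SE 0.072, adjusted p = 0.00869). It was the only one of the 8 genes to pass there, where 5.34% of all genes passed. Without sh 64 replicate 1 that difference was 0.29 with an adjusted p of 0.0957. The sh 64 change passed when sh 65 replicate 1 (-0.20, adjusted p = 0.037) or sh 65 replicate 2 (-0.20, adjusted p = 0.0417) was left out.

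The ratio of HLA-B to HLA-C counts within a library does not depend on how libraries are scaled. It was 1.82, 1.80 and 1.78 in A253 with EHF overexpression, against 1.30, 1.32 and 1.25 in A253 controls. In SCC25 it was 1.49 and 1.53 with EHF overexpression, against 1.31 and 1.28 in controls. In CAL27 it was 0.564 and 0.574 with sh 64 and 0.489 and 0.550 with sh 65, against 0.323 and 0.374 in controls. The groups did not overlap in any line, and HLA-B gained on HLA-C in each. These 2 genes can share reads, and each value is for the rows as counted. HLA-B kept pace with B2M in A253, at 0.317, 0.320 and 0.303 HLA-B counts per B2M count with EHF overexpression, against 0.319, 0.330 and 0.310 in controls. In SCC25 this ratio was 0.601 and 0.626 with EHF overexpression, against 0.614 and 0.591 in controls. In CAL27 HLA-B gained on B2M, at 0.108 and 0.119 with sh 64 and 0.144 and 0.134 with sh 65. The CAL27 controls were at 0.0839 and 0.0904.

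**Figure D2:**
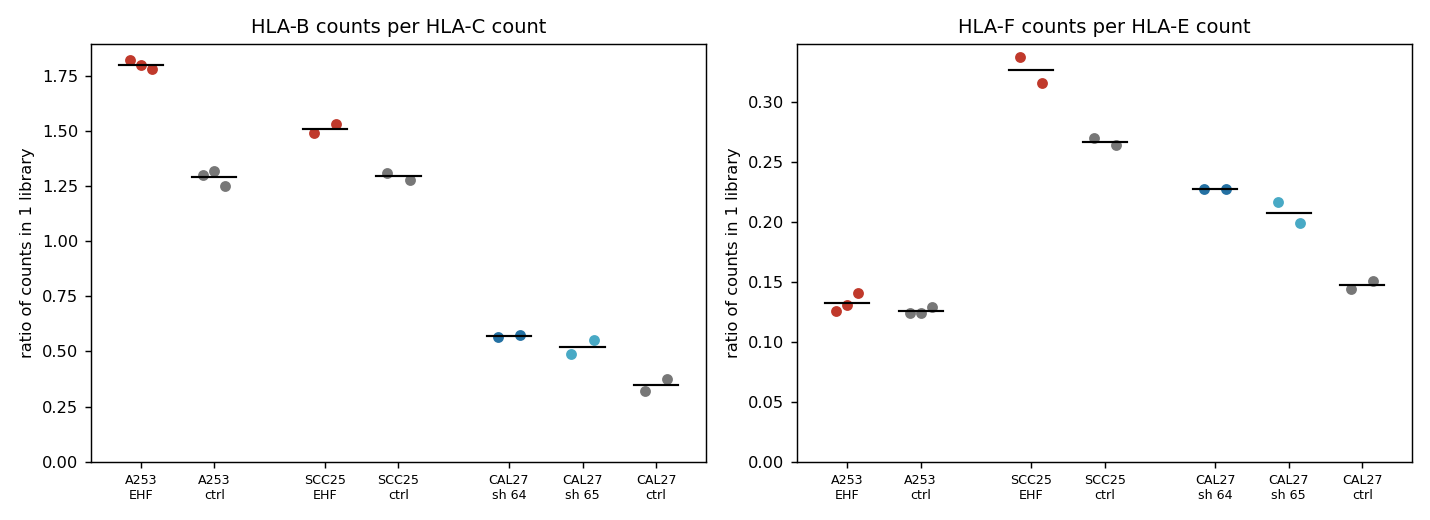
Ratio of HLA-B to HLA-C counts (left) and of HLA-F to HLA-E counts (right) in each library (points) with the group mean (bar), on linear axes from 0. HLA-B per HLA-C is above the controls in every changed library, for example 1.78 to 1.82 against 1.25 to 1.32 in A253, and HLA-F per HLA-E overlaps its controls in A253 only.

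HLA-E, a non-classical heavy chain that shows signal peptides of other class I chains to NKG2A receptors, was at 231, 254 and 239 CPM in A253 with EHF overexpression, against 207, 200 and 216 CPM in controls. The groups did not overlap (log2 change 0.22, SE 0.061, adjusted p = 0.0348). SCC25 libraries had 391 and 399 CPM with EHF overexpression, against 252 and 267 CPM in controls, and the gene rose 1.52-fold (log2 change 0.61, SE 0.05, adjusted p = 1.72e-09). In CAL27 it was at 144 and 133 CPM with sh 64 and 139 and 144 CPM with sh 65, against 123 and 136 CPM in controls, with overlapping ranges and no pass in the mean of both knockdowns (log2 change 0.11, adjusted p = 0.309).

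HLA-F, a non-classical heavy chain largely kept inside resting cells, was at 29.1, 33.3 and 33.7 CPM in A253 with EHF overexpression, against 25.7, 24.7 and 27.8 CPM in controls (log2 change 0.30, SE 0.084, adjusted p = 0.0332). SCC25 showed 132 and 126 CPM with EHF overexpression, against 67.9 and 70.6 CPM in controls (1.86-fold, log2 change 0.90, SE 0.057, adjusted p = 1.03e-11). Levels in CAL27 were 32.9 and 30.3 CPM with sh 64 and 30.2 and 28.7 CPM with sh 65, against 17.7 and 20.7 CPM in controls. No changed group overlapped its control. The log2 change was 0.71 with sh 64 (adjusted p = 0.000513) and 0.60 with sh 65 (adjusted p = 0.00224), and the sh 65 value was 0.51 with an adjusted p of 0.0517 without control replicate 1. The sources used here do not say that strand was used in counting, so reads of HLA-F and of its antisense partner HLA-F-AS1 cannot be told apart. HLA-F counts per HLA-E count were 0.228 in both sh 64 libraries and 0.217 and 0.199 in the sh 65 libraries, against 0.144 and 0.151 in CAL27 controls.

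HLA-G, known for its part in tolerance at the placenta, was all but silent outside 1 group. It had 184 and 298 counts in SCC25 with EHF overexpression, against 29 and 2 counts in SCC25 controls. These are 17.4 and 19.8 CPM, against 1.79 and 0.135 CPM, and the 2 controls differ widely from each other (log2 change 4.22, SE 0.536, adjusted p = 0.0116). Only the EHF overexpression libraries brought the gene past the filter on low counts in SCC25, which favours a rise. The log2 change was 3.38 to 7.02 when any 1 SCC25 library was left out. In A253 it had 8, 4 and 10 counts with EHF overexpression, against 13, 13 and 1 counts in controls (log2 change -0.25, adjusted p = 0.882). In CAL27 it had 7, 3, 5 and 5 counts in the knockdown libraries, against 2 and 8 counts in controls.

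B2M, the light chain needed by every class I heavy chain, was at 1160, 1119 and 1267 CPM in A253 with EHF overexpression, against 783, 746 and 863 CPM in A253 controls. The groups were far apart (1.48-fold, log2 change 0.57, SE 0.072, adjusted p = 6.33e-05). Levels in SCC25 were 2375 and 2357 CPM with EHF overexpression, against 1398 and 1478 CPM in controls (1.65-fold, log2 change 0.72, SE 0.052, adjusted p = 1.5e-10). CAL27 libraries had 1212 and 1192 CPM with sh 64 and 1043 and 1228 CPM with sh 65, against 1054 and 1148 CPM in controls, and the change did not pass (log2 change 0.09, SE 0.07, adjusted p = 0.442). The CAL27 ranges overlapped. The 5 heavy chain rows summed to 850 ± 21.6 CPM in A253 with EHF overexpression, against 686 ± 34.9 CPM in A253 controls (SD, n = 3 each), a ratio of 1.24. In SCC25 the sum was 2955 ± 40.6 CPM with EHF overexpression, against 1865 ± 44.2 CPM in controls (SD, n = 2 each), a ratio of 1.58. In CAL27 it was 590 ± 49.4 CPM in the 4 knockdown libraries, against 521 ± 25.1 CPM in the 2 controls, a ratio of 1.13. The sum was not tested.

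TAP1, a subunit of the peptide transporter, was at 35.1, 36.3 and 37.9 CPM in A253 with EHF overexpression, against 33.0, 30.0 and 33.3 CPM in controls. Those groups did not overlap, yet the change did not pass (log2 change 0.19, SE 0.075, adjusted p = 0.17). SCC25 libraries had 135 and 129 CPM with EHF overexpression, against 99.6 and 104 CPM in controls (1.30-fold, log2 change 0.38, SE 0.054, adjusted p = 1.19e-05). In CAL27 the log2 change was 0.09 in the mean of both knockdowns (adjusted p = 0.378). TAPBP, or tapasin, which holds the heavy chain at the transporter until it has a peptide, was at 114, 102 and 94.2 CPM in A253 with EHF overexpression, against 81.3, 90.8 and 79.0 CPM in controls. These groups were apart (log2 change 0.30, SE 0.078, adjusted p = 0.022). SCC25 showed 193 and 179 CPM with EHF overexpression, against 150 and 140 CPM in controls (log2 change 0.35, SE 0.054, adjusted p = 2.69e-05). In CAL27 knockdowns its log2 change was -0.02 (adjusted p = 0.906).

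NLRC5, the class I transactivator, was at 14.7, 14.5 and 12.9 CPM in A253 with EHF overexpression, against 11.3, 11.6 and 11.5 CPM in controls. The groups were apart but the change did not pass (log2 change 0.30, SE 0.099, adjusted p = 0.0829). Levels in SCC25 were 39.8 and 40.6 CPM with EHF overexpression, against 32.2 and 34.2 CPM in controls (log2 change 0.28, SE 0.077, adjusted p = 0.00985). That call was lost without EHF overexpression replicate 2 (log2 change 0.26, adjusted p = 0.0967) and with DESeq2 (0.28, adjusted p = 0.11). In CAL27 it was at 20.1 and 21.9 CPM with sh 64 and 21.1 and 18.9 CPM with sh 65, against 22.0 and 21.6 CPM in controls (log2 change -0.09, adjusted p = 0.607).

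In A253 the smaller rises rest on few libraries. HLA-E missed the threshold without control replicate 1 (adjusted p = 0.151), control replicate 2 (0.113), control replicate 3 (0.0501), EHF overexpression replicate 2 (0.164) or EHF overexpression replicate 3 (0.0857). HLA-F missed it without control replicate 1 (0.145), control replicate 2 (0.113), EHF overexpression replicate 2 (0.13) or EHF overexpression replicate 3 (0.139). TAPBP missed it without control replicate 1 (0.131), control replicate 3 (0.101), EHF overexpression replicate 1 (0.115) or EHF overexpression replicate 2 (0.0653). DESeq2 lost HLA-E (adjusted p = 0.0639) and HLA-F (0.114). HLA-B and B2M passed in all of these fits.

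**Figure D3:**
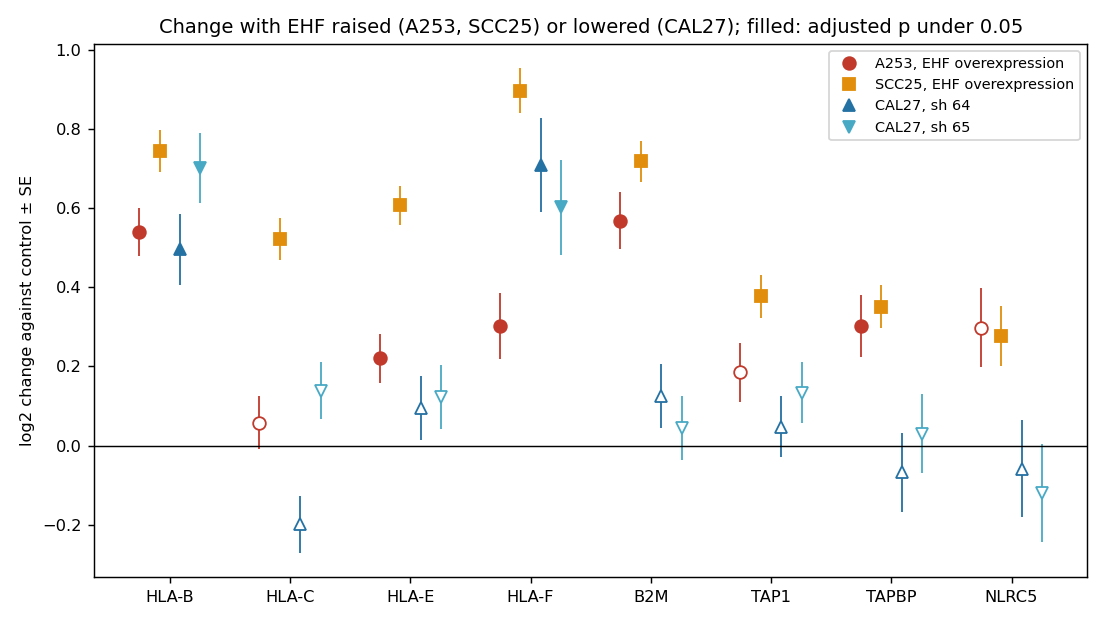
Log2 change against the line's own control, with its standard error, for the 8 genes tested in every line. Filled symbols passed an adjusted p of 0.05. HLA-B and HLA-F are filled in all 4 comparisons, while B2M is filled with EHF overexpression, at 0.57 in A253 and 0.72 in SCC25, and open with either knockdown.

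The change in SCC25 was set against that in A253 in a joint fit, although the EHF contrast was larger in A253. HLA-F differed most clearly, with a log2 change of 0.90 in SCC25 and 0.30 in A253 (difference 0.58, SE 0.105, adjusted p = 0.00224). HLA-C differed by 0.45 (SE 0.091, adjusted p = 0.00537) and HLA-E by 0.37 (SE 0.086, adjusted p = 0.0124). These 3 of 9 genes passed, all larger in SCC25, where 5.63% of all genes tested passed. HLA-E missed the threshold without SCC25 control replicate 1 (0.34, adjusted p = 0.0756), SCC25 EHF overexpression replicate 1 (0.40, adjusted p = 0.0507) or SCC25 EHF overexpression replicate 2 (0.35, adjusted p = 0.0767). For HLA-B the difference was 0.19 (SE 0.084, adjusted p = 0.204) and for B2M 0.14 (SE 0.097, adjusted p = 0.485). The HLA-G difference of 4.46 (SE 1.22) had an adjusted p of 0.092. It was 7.28 without SCC25 control replicate 1 and 3.63 without SCC25 control replicate 2. The SCC25 controls had 29 and 2 counts of HLA-G, so each of these values rests on 1 control and is no separate support. Only SCC25 libraries with EHF overexpression held more than 29 counts of HLA-G.

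Across the 7 groups, the level of HLA-B ran from 96.1 CPM in CAL27 controls to 1451 CPM in SCC25 with EHF overexpression, with no 2 neighbours in that order overlapping. The lines were scaled separately, so this order sets levels across separate scalings. All SCC25 groups held more HLA-B, HLA-C, HLA-E, HLA-F and B2M than any A253 or CAL27 group, except that the HLA-E range of SCC25 controls met that of A253 with EHF overexpression. For B2M the ranges of CAL27 controls, sh 65, A253 with EHF overexpression and sh 64 overlapped in turn.

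Counts and the authors' TPM values together imply the exon length used for each row. For HLA-B that length was 10065 bases, 3.05 times the span of the gene in RefSeq, and for HLA-C, HLA-E, HLA-G, TAP1 and TAPBP it was 3.53, 4.24, 2.59, 2.97 and 1.51 times the span. These 6 of 9 genes exceeded 1.5 times their span, as did 0.816% of 18024 genes, 147 in all, of which 123 lie on chromosome 6. More genes, 9.17%, exceeded their span at all. The sums and ratios of counts given above are of the rows as counted and not per length. For HLA-F, which lies in the chromosome 6 cluster, the implied length was 12156 bases and the ratio to its span of 15099 bases was 0.805. That length was near those of HLA-C (11795 bases) and HLA-G (11788 bases), whose spans are shorter, at 3344 and 4548 bases. The median ratio over all genes was 0.124, so the HLA-F ratio does not set it apart from the other heavy chain rows. For B2M and NLRC5, which lie outside the cluster, the ratio was 0.159 and 0.0764. How reads with several matches were treated is not given in the sources used here, and its part in the results was not tested.

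Other genes of the pathway were taken from lists, and each list is described by its counts and median, to be read against all genes tested. Of those, 5.03% rose and 2.94% fell in A253, 12.2% rose and 11.6% fell in SCC25, and 9.88% rose and 8.91% fell in CAL27 knockdowns. CAL27 values are means of both knockdowns unless a hairpin is named, and the comparisons of sh 64 and sh 65 share their controls. Of 6 genes of the immunoproteasome and its activators, 5 rose and 0 fell in A253 with EHF overexpression (median log2 change 0.50), 4 rose and 1 fell in SCC25 (0.31), and 3 rose and 0 fell in CAL27 knockdowns (0.20). By hairpin, 1 of the 6 rose with sh 64, PSMB9, and 4 rose with sh 65. Of all genes tested, 8.76% rose with sh 64 and 7.62% with sh 65. PSMB10 rose most in A253 (log2 change 0.79, adjusted p = 4.73e-05) and SCC25 (0.63, adjusted p = 2.54e-07). PSMB9 was at 85.4 and 70.8 CPM with sh 64 and 71.7 and 86.1 CPM with sh 65, against 52.3 and 56.0 CPM in CAL27 controls (0.53, adjusted p = 0.000677). It rose in A253 (0.67, adjusted p = 0.000109) and SCC25 (0.36, adjusted p = 0.000438) as well. PSME3, an activator of nuclear proteasomes, fell in SCC25 (-0.19, adjusted p = 0.0212). The 3 catalytic subunits that these replace, PSMB5, PSMB6 and PSMB7, all fell in SCC25 (median -0.28), 0 of 3 passed in A253 (-0.08), and PSMB6 rose in CAL27 knockdowns (0.31, adjusted p = 0.00283).

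Of 11 genes of peptide supply and loading, 3 rose and 0 fell in A253 (median 0.03), 6 rose and 1 fell in SCC25 (0.15), and 0 rose and 2 fell in CAL27 knockdowns (0.01), where 2 of 11 is close to the 18.8% of all genes that passed. ERAP2, which trims peptides in the endoplasmic reticulum, rose in A253 (0.92, adjusted p = 3.4e-08) and SCC25 (0.39, adjusted p = 0.0243). TAPBPL, a tapasin-like peptide editor, rose in A253 (0.86, adjusted p = 4.43e-05) and SCC25 (0.48, adjusted p = 0.000839). TAP2, the partner of TAP1, was at 120 and 134 CPM with sh 64 and 150 and 131 CPM with sh 65, against 173 and 163 CPM in CAL27 controls (log2 change -0.33, adjusted p = 0.00387), and it passed with sh 64 (-0.41, adjusted p = 0.00328) and not with sh 65 (-0.25, adjusted p = 0.0544). The other fall there was SEC61A1, a channel subunit of the endoplasmic reticulum (-0.28, adjusted p = 0.00427), and the fall in SCC25 was BCAP31 (-0.16, adjusted p = 0.0418).

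Among 14 regulators of class I transcription, 2 rose in A253 and 5 in SCC25 with 0 falls in either, and 2 rose and 1 fell in CAL27 knockdowns (medians 0.10, 0.12 and 0.14). The 3 of 14 passing in CAL27 knockdowns are close to the 18.8% of all genes. IRF1, an interferon-induced activator, was at 68.9, 69.0 and 73.0 CPM in A253 with EHF overexpression, against 38.7, 36.7 and 34.4 CPM in A253 controls (log2 change 0.94, adjusted p = 1.86e-07). It also rose in SCC25 (0.60, adjusted p = 3.12e-08). In CAL27 the hairpins differed for IRF1 (sh 65 against sh 64 0.29, adjusted p = 0.0397): it rose with sh 65 (0.35, adjusted p = 0.00503) and did not pass with sh 64 (0.06, adjusted p = 0.656), and the mean of both passed (0.21, adjusted p = 0.0424). They differed for NFKB1 as well (-0.50, adjusted p = 0.00426), which fell with sh 65 (-0.52, adjusted p = 0.00103) and did not pass with sh 64 (-0.02, adjusted p = 0.901), with a mean of -0.27 (adjusted p = 0.0225). STAT2 rose in SCC25 (0.34, adjusted p = 2.96e-05). IRF9 passed in the mean of both knockdowns (0.34, adjusted p = 0.0338) and with sh 65 (0.39, adjusted p = 0.0374), but not with sh 64 (0.28, adjusted p = 0.137). Of 7 interferon receptors and kinases 1 passed in each line, as higher, which is a smaller share than the 23.9% and 18.8% of all genes in SCC25 and CAL27 and a single gene beside the 7.97% in A253. They were IFNGR1 in A253 (0.26) and IFNAR1 in SCC25 (0.21) and in the mean of both CAL27 knockdowns (0.24), where IFNAR1 passed with neither hairpin alone (adjusted p = 0.0639 with sh 64 and 0.131 with sh 65).

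Of the interferon-stimulated genes listed, 8 of 15 rose in A253 with EHF overexpression, 13 of 14 in SCC25 and 15 of 15 in CAL27 knockdowns, with 0 falls (medians 0.34, 0.54 and 0.60). SAMD9L and IFITM1, which restrict viruses, rose in A253 (1.08 and 1.01) and SCC25 (0.91 and 0.97). IFI27 was at 102 and 98.8 CPM with sh 64 and 109 and 130 CPM with sh 65, against 48.5 and 58.1 CPM in CAL27 controls (log2 change 1.02, adjusted p = 7.97e-07), and GBP2, a guanylate-binding protein, passed there too (1.00, adjusted p = 0.0184), as it did with sh 64 (1.21, adjusted p = 0.0152) but not with sh 65 (0.78, adjusted p = 0.0845). Earlier results of these data already showed interferon genes higher in A253 and SCC25, so those counts are no separate support. Of class I-like molecules and NKG2D ligands, 0 of 10 passed in A253, FCGRT alone of 12 rose in SCC25 (0.25, adjusted p = 0.0175), and 4 of 11 rose in CAL27 knockdowns, led by RAET1E (0.76, adjusted p = 0.00491) and PROCR (0.52, adjusted p = 0.00146). PROCR passed with sh 64 (0.70, adjusted p = 0.00038) and not with sh 65 (0.33, adjusted p = 0.0625). Of 5 class I pseudogenes and neighbours that can share reads, HCP5 rose in A253 (0.55), SCC25 (0.62) and CAL27 knockdowns (0.40), and HLA-H rose in A253 (0.36) and SCC25 (0.72). HCP5 passed with sh 65 (0.51, adjusted p = 0.0172) and not with sh 64 (0.30, adjusted p = 0.151).

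**Figure D4:**
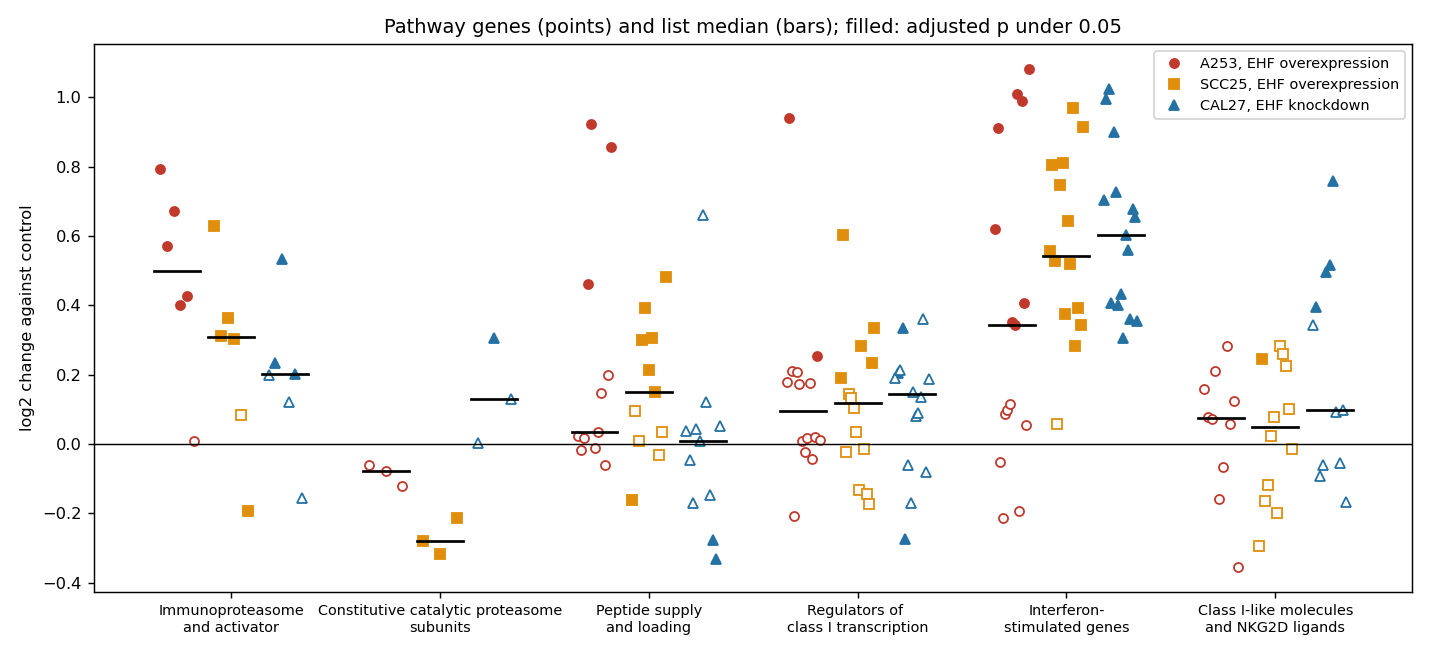
Log2 change of each listed gene (points) and the list median (bars) for A253 and SCC25 with EHF overexpression and CAL27 with EHF knockdown, each against its control. Filled symbols passed an adjusted p of 0.05, as all 15 interferon-stimulated genes did in CAL27 knockdowns and 5 of 6 immunoproteasome genes in A253.

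Class II genes, which professional antigen-presenting cells use, were low in A253 and SCC25. HLA-DRA had 15 and 20 counts in SCC25 with EHF overexpression, against 3 and 1 counts in controls (log2 change 3.32, adjusted p = 9.1e-05). CD74, the invariant chain, had 18 and 34 counts there, against 8 and 3 counts in controls (2.48, adjusted p = 0.000105). Both genes cleared the filter on low counts in SCC25 only through the EHF overexpression libraries, so their passes are no separate support. In CAL27, HLA-DRA was at 43.0 and 42.9 CPM with sh 64 and 37.3 and 42.9 CPM with sh 65, against 27.2 and 36.5 CPM in controls (0.35, adjusted p = 0.0323). It passed with sh 64 (0.40, adjusted p = 0.0367) and not with sh 65 (0.30, adjusted p = 0.129). CD74 was at 87.6 and 87.5 CPM with sh 64 and 66.5 and 68.8 CPM with sh 65, against 89.1 and 94.5 CPM in CAL27 controls. It fell with sh 65 (-0.44, adjusted p = 0.00115) and did not pass with sh 64 (-0.07, adjusted p = 0.597), the hairpins differed (-0.37, adjusted p = 0.012), and the mean of both was -0.26 (adjusted p = 0.014). CTSS, the protease that trims the invariant chain, rose with EHF overexpression and fell with EHF knockdown, with log2 changes of 1.65 in A253, 1.38 in SCC25 and -1.23 in CAL27 knockdowns (adjusted p = 1.86e-07, 3.02e-14 and 2.86e-05). Counting the list, 2 of 3 tested genes rose in A253, and 1 of 9 rose and 2 fell in CAL27 knockdowns. In SCC25 4 of 7 rose, HLA-DRA and CD74 among them. The other riser in A253 was HLA-DQB1 (0.74, adjusted p = 0.0434).

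The genes whose pattern was most like the mean of the class I genes were found by Pearson correlation of log2 CPM, centred within each line, over the 16 libraries and 12658 genes tested in all lines. MMP13, a collagenase, had r = 0.972, CLU, an extracellular chaperone, 0.954, NTN4, a basement membrane netrin, 0.948, and PTHLH, a parathyroid hormone-like peptide, 0.935. The libraries share lines and treatments, and these values are a description. Of the class I genes, HLA-E and TAP1 lay closest to their own mean (0.950 each) and TAPBP farthest (0.708). Each of them is part of that mean, which raises its r. EHF, which is not part of it, had r = 0.587, so the values cannot be compared directly.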

How the data were processed

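RNA of 16 libraries was analysed from deposited tables with 1 row per gene symbol. The authors' count tables hold raw counts, and the submitters' processing notes name TopHat2 2.1.1, Bowtie 1.1.1, featureCounts 1.5.3, DESeq2 1.12.4 and hg19, without giving their roles. The deposited TPM tables of A253 and CAL27 hold TPM made by the authors. The SCC25 TPM table was not used, because its values had been divided by length more than once. Of the CAL27 row names in the count data, 696 were altered and were taken by position from A253. Implied lengths (counts over TPM) in A253 and CAL27 lay within 0.05 log2 units of each other for 18450 of 18450 genes, and within 0.01 for 17634. The tolerance of 0.05 was set after the values were seen. Hairpin names are those of the count table, and the TPM table has them the other way round. The labels tie neither hairpin to a numbered knockdown.

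A253 libraries held 11090976 to 17823293 counts, SCC25 libraries 10728569 to 15965279 and CAL27 libraries 7068155 to 19962159. Counts were filtered with filterByExpr, scaled by TMM and fitted per line with edgeR 4.0.16 (robust quasi-likelihood, two-sided, R 4.3.3), and A253 and SCC25 jointly for the difference between lines. P-values were adjusted by Benjamini and Hochberg over all genes tested, with a threshold of 0.05. On simulated counts the fit recovered 89.5% of 2-fold changes in A253, 89.5% in SCC25 and 85% in CAL27. The joint fit for the difference between lines recovered 74%. Smaller changes, such as most of those of the class I genes, were not simulated. Alternatives were DESeq2 1.42.0, no filter, the replicate number as a block, each library left out, and limma 3.58.1 on log2(TPM + 1) and log2(TPM + 0.1).

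The members and lists were chosen with earlier results of these data known. Per list, comparison and direction, the 2 genes with the largest change past the threshold are named, as are the 5 genes nearest in pattern, except that a few genes these rules select are not reported here. Implied length over gene span is given at cuts of 1.5 and 1, scaled on 66 histone genes. A few lists hold symbols that matched no row. Promoter windows are from RefSeq (GRCh38.p14), and the kB consensus replaced a looser spelling after matches had been seen.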

Additional observations from a re-analysis of the deposited data

Results flagged for a closer look

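The change with EHF overexpression differed between SCC25 and A253 for 3 of the 9 class I genes in a joint fit: HLA-F by 0.58, HLA-C by 0.45 and HLA-E by 0.37 on the log2 scale, each larger in SCC25. HLA-C differed by 0.34 between sh 65 and sh 64 in CAL27, higher with sh 65. No library stood apart in the 9 gene by group sets of 4 libraries that could be tested. These sets pooled both hairpins of CAL27, so a difference between the hairpins can hide a library that stands apart. Groups of A253, SCC25 and CAL27 controls were too small to be tested.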

How the results depend on the processing

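Of 631 values of single genes under alternatives, 566 kept direction and side of the threshold, 33 no longer passed, 5 newly passed and 27 changed sign, of which 0 had passed. HLA-B in all 3 lines, HLA-F in SCC25 and the mean of both knockdowns, and B2M in A253 and SCC25 passed under every alternative run. In A253 the number of genes passing was 3 with DESeq2 and 2 with limma on log2(TPM + 1) or log2(TPM + 0.1), against 5, and 2 to 4 with 1 library left out. With sh 65 it was 1 in both limma fits, against 2, and 1 to 2 with 1 library left out. For sh 65 against sh 64 it was 0 in both limma fits, against 1, and 0 to 1 with 1 library left out, and at an unadjusted p under 0.05 edgeR had HLA-B besides HLA-C. In the limma fits of sh 65 the log2 change was -0.02 and -0.02 for B2M and -0.037 and -0.04 for TAPBP. The median log2 change of all genes for sh 65 was -0.05 and -0.058 in those limma fits, against 0.006 in the edgeR fit. With 1 library left out, these changes crossed 0: HLA-G in A253 (-0.613 to 0.159); TAPBP in the mean of both knockdowns (-0.104 to 0.063), sh 64 (-0.183 to 0.052), sh 65 (-0.096 to 0.146), sh 65 against sh 64 (-0.024 to 0.214) and SCC25 minus A253 (-0.032 to 0.113); B2M in sh 65 (-0.079 to 0.16) and sh 65 against sh 64 (-0.205 to 0.038); NLRC5 in sh 64 (-0.115 to 0.012), sh 65 against sh 64 (-0.138 to 0.013) and SCC25 minus A253 (-0.097 to 0.02); and HLA-E in sh 65 against sh 64 (-0.026 to 0.092). The cause was not tested. Deviations of same-numbered libraries correlated at -0.192, 0.0108 and 0.181 in A253, -0.0306 in SCC25, and in CAL27 at 0.153 for sh 65 with control, 0.0855 for sh 64 with sh 65 and -0.0107 for sh 64 with control. With these mixed signs, and with no shared source in the labels, the replicate numbers were not taken as pairing. With the replicate block the number passing was 5 in A253, 8 in SCC25, 2 in the mean of both knockdowns, 3 with sh 64, 2 with sh 65, 1 for sh 65 against sh 64 and 3 for SCC25 minus A253. HLA-G in SCC25 was lost under the block (log2 change 4.22, adjusted p = 0.187), and HLA-C with sh 64 passed (-0.20, adjusted p = 0.0213). Limma was not run for SCC25. Counts of HLA-G, at most 13 in A253 and 8 in CAL27, limit what depth can show.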
